A study of Homo sapiens with 6 samples.

Results

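TXNIP, its arrestin relatives ARRDC3 and ARRDC4, and the glucose-sensing transcription factors MLXIP (also called MondoA) and MLXIPL (also called ChREBP) were examined in NCI-H660 cells treated with pyrvinium pamoate (PP) or PBS. These 5 genes were taken by symbol from the deposited expression table of 17177 genes, and each symbol occurred once. The NCI-H660 line is established and comes from a neuroendocrine prostate cancer (NEPC), its genotype is given as WT in both groups, and PP is an anthelmintic drug. Each group comprised 3 libraries of RNA collected on day 3, and the concentration of PP used for them was not found in the sources used here. The study's legend for these data describes the 3 as independent samples, while the labels do not say whether they came from separate cultures, so P values measure the spread between these libraries, which may be technical.

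MondoA and ChREBP pair with the small partner MLX, enter the nucleus when glucose 6-phosphate accumulates, and bind carbohydrate response elements in the promoters of their target genes. TXNIP is the classical MondoA target. Its protein binds thioredoxin and promotes the removal of the glucose transporter GLUT1 (encoded by SLC2A1) from the cell surface, and its mRNA is short-lived and responds quickly to glucose supply. ARRDC4 is a close relative under the same control that also restrains glucose uptake. ARRDC3 belongs to the same alpha-arrestin family and links membrane proteins such as receptors and integrins to ubiquitin ligases of the NEDD4 family.

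Expression was measured as FPKM, a fragment count divided by gene length and by library depth. Levels of different genes set side by side therefore depend on the gene lengths used, which were not checked here. The recovered counts per library ranged from 29064253 to 32481171. The neuroendocrine markers that define the line were present, with a summed level of 848.6 to 856.6 FPKM over 8 markers in the PBS libraries and 458.4 to 473.7 FPKM in the PP libraries. The 4 luminal prostate markers that were analysed summed to at most 1.404 FPKM in any library. The 10 stromal, endothelial and blood markers summed to 7.028 to 7.329 FPKM after PBS and 7.013 to 7.832 FPKM after PP. They ranged from CD3E, at 1 count in 1 library and 0 in the others, to COL1A1. COL1A1 had 591 to 599 counts after PBS and 725 to 801 counts after PP. Of the 2 that averaged at least 1 FPKM, COL1A1 was higher with PP (log2 0.26, limma adjusted p = 0.002) and CD68 was not called (limma adjusted p = 0.0524). Among all genes of that level 38.1% were called higher. In a fit over genes averaging at least 0.1 FPKM, where 66.8% of genes were called, 2 other markers of this list were lower. They were COL1A2 (log2 -0.33, limma adjusted p = 0.0164) and VWF (log2 -0.20, limma adjusted p = 0.036). ACTA2 was not called there (log2 0.17, limma adjusted p = 0.126). Since the RNA came from bulk cultures, fewer cells of a type and less RNA per cell cannot be told apart, and the part of the lower neuroendocrine level in the results that follow was not tested.

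To show the promoter letters of the arrestin genes among the 5, the 250 bases before the annotated start are given for TXNIP and ARRDC4, which were lower with PP, and for ARRDC3, which was higher. The sequences are from the RefSeq promoter table built on GRCh38.p14, and each was found once on its chromosome in hg19, the build of the coordinates given here. Lower case is used throughout, 5′ to 3′ on the gene's strand, and capitals mark CACG, the core of the carbohydrate response element, and CCAAT, the box bound by NF-Y, on either strand (CGTG and ATTGG when read from the other strand). TXNIP (ENSG00000265972) lies at chr1:145438490-145442635 on the plus strand, ARRDC4 (ENSG00000140450) at chr15:98503933-98517063 on the plus strand and ARRDC3 (ENSG00000113369) at chr5:90664448-90679134 on the minus strand. The printed windows are chr1:145438240-145438489, chr15:98503683-98503932 and chr5:90679135-90679384, all upstream of the first exon.
TXNIP: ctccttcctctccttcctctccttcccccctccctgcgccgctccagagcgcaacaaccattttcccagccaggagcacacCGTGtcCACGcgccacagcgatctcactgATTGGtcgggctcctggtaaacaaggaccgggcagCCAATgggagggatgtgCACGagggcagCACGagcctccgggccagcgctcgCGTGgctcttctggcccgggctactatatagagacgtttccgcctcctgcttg
ARRDC4: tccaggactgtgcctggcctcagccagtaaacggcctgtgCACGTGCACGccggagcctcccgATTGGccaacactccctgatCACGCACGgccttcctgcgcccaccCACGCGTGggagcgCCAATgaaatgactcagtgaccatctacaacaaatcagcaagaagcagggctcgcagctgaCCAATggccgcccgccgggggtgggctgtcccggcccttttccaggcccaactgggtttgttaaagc
ARRDC3: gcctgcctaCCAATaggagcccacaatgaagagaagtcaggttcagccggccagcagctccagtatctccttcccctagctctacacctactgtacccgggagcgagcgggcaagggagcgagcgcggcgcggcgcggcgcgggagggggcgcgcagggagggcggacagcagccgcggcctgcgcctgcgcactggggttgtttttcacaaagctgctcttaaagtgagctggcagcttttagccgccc

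In the TXNIP window, the run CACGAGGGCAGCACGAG at positions -88 to -72 from the start matched the form of a carbohydrate response element, written here as CACGNG, 5 bases of any kind and CNCGNG. It follows the CCAAT box at -105 to -101, and another CCAAT box on the opposite strand lies at -140 to -136. Only 0.424% of 35116 promoters searched on both strands held that form, while 32.0% held at least 1 CCAAT and 61.1% at least 1 CACG, a motif that the longer form contains. The ARRDC4 window had no match to the full form but held 7 CACG and 3 CCAAT, and its CACGTG at -210 to -205, an E-box that reads as CACG on both strands, occurs in 6.34% of promoters. No CACG was found in the ARRDC3 window, which held 1 CCAAT at -241 to -237. A second listed start of ARRDC3 had 2 CACG before it and a second start of TXNIP had 1 CACG. The MLXIP window held 5 CACG and 1 CCAAT, and the MLXIPL window held none of these motifs. A match is a description of letters, and binding of any factor was not measured here.

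TXNIP, the sensor output of the pathway, had the highest FPKM of the 5 genes and fell by 42.07% with PP. The PBS libraries had 103.7, 100.2 and 103.6 FPKM and the PP libraries 56.98, 58.63 and 62.56 FPKM, from 9322 to 10277 counts and from 5552 to 6506 counts. Every PP library was below every PBS library. The means were 102.5 ± 2.004 FPKM (SD, n = 3) and 59.39 ± 2.87 FPKM (SD, n = 3). On the log2(FPKM + 1) scale, which understates changes of low genes, the difference was -0.78 (SE 0.0404, 95% interval -0.87 to -0.69, limma adjusted p = 6.51e-08). Of the 11726 genes tested, 641 had a lower log2 fold change, and the rank of TXNIP by level among the 17177 genes moved from 529 to 983.

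ARRDC3, the adaptor that hands membrane proteins to NEDD4-type ligases, rose by 59.43%. Its PBS libraries had 14.59, 14.99 and 14.24 FPKM, and its PP libraries had 21.73, 23.73 and 24.41 FPKM, from 2149 to 2210 and from 3262 to 3911 counts. The groups were clearly apart, with the lowest PP library above the highest PBS library. The means were 14.61 ± 0.378 FPKM (SD, n = 3) and 23.29 ± 1.395 FPKM (SD, n = 3), and the log2 difference was 0.64 (SE 0.0503, 95% interval 0.52 to 0.75, limma adjusted p = 1.43e-06). A higher log2 fold change was seen in 777 of the 11726 genes, and the level rank moved from 4687 to 3141. ARRDC3 overlaps the antisense gene ARRDC3-AS1 on the opposite strand, and whether the counting used strand is not stated in the sources used here.

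ARRDC4, the arrestin closest to TXNIP in its known control, had a low level and fell by 14.74%, a smaller change than that of TXNIP. The values were 3.934, 4.408 and 4.286 FPKM after PBS and 3.527, 3.446 and 3.793 FPKM after PP, from 495, 525 and 544 counts and 440, 423 and 505 counts. The groups did not overlap, but the gap between 3.793 and 3.934 FPKM was narrow. The means were 4.209 ± 0.246 FPKM (SD, n = 3) and 3.589 ± 0.182 FPKM (SD, n = 3), and the log2 difference was -0.18 (SE 0.0621, 95% interval -0.32 to -0.04, limma adjusted p = 0.0221). The call rested on several libraries, since limma gave -0.16 (adjusted p = 0.0817) without PBS replicate 2, -0.17 (adjusted p = 0.0646) without PBS replicate 3, -0.17 (adjusted p = 0.0562) without PP replicate 1 and -0.16 (adjusted p = 0.0727) without PP replicate 2.

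MLXIP, which encodes the glucose sensor MondoA, was expressed in both groups and fell by 9.499%, the smallest of the called changes among the 5 genes. Its locus (ENSG00000175727) is chr12:122516628-122631894 on the plus strand. The PBS libraries had 23.66, 25.39 and 24.17 FPKM and the PP libraries 22.22, 22.65 and 21.4 FPKM, from 5924 to 6559 counts per library. All PP libraries were below all PBS libraries, by a margin close to the spread within a group. The means were 24.41 ± 0.889 FPKM (SD, n = 3) and 22.09 ± 0.632 FPKM (SD, n = 3), and the log2 difference was -0.14 (SE 0.0431, 95% interval -0.23 to -0.04, limma adjusted p = 0.0149). Without PBS replicate 2, the highest library, it was -0.11 (limma adjusted p = 0.0706).

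MLXIPL, which encodes the liver-type sensor ChREBP, was near the lower limit of expression in these cells. Its locus (ENSG00000009950) is chr7:73007524-73038873 on the minus strand and overlaps another annotated gene on that strand. Levels were 0.7772, 0.9551 and 0.8411 FPKM after PBS and 1.152, 1.187 and 0.802 FPKM after PP, from 98, 114 and 107 counts and 144, 146 and 107 counts. The groups overlapped, because PP replicate 3 lay within the PBS range while the other PP libraries lay above it. Its mean over the 6 libraries was below 1 FPKM, so it was taken from a fit over 13771 genes with a mean of at least 0.1 FPKM, in which 66.8% of genes were called. The log2 difference was 0.14 (SE 0.0858, 95% interval -0.06 to 0.33, limma adjusted p = 0.19) and did not pass the threshold, whereas without PP replicate 3 it was 0.22 (limma adjusted p = 0.0265).

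**Figure D1:**
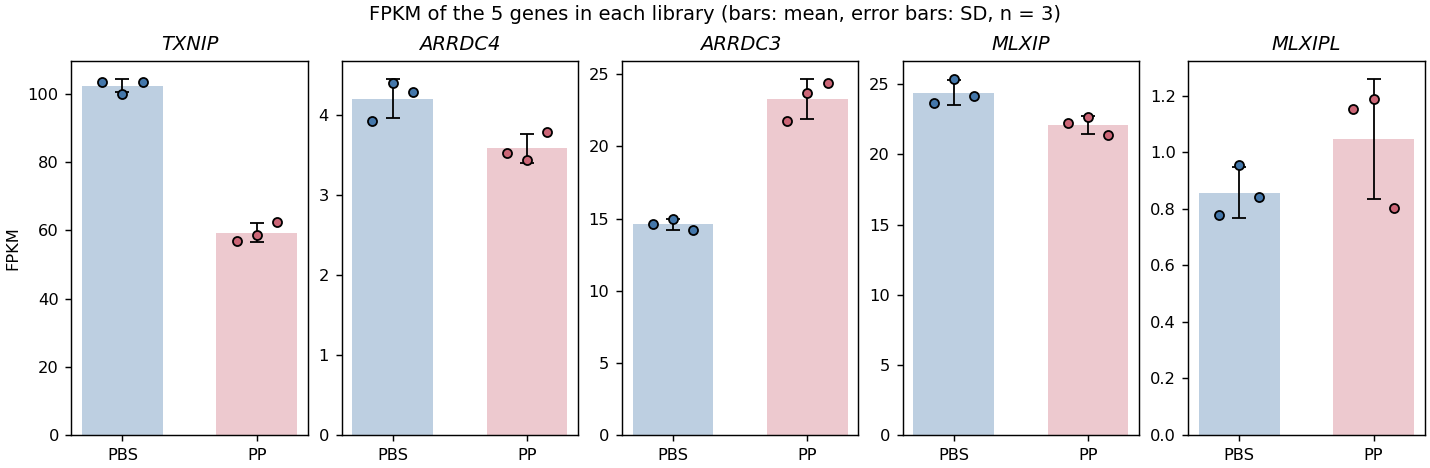
FPKM of TXNIP, ARRDC3, ARRDC4, MLXIP and MLXIPL in each of the 3 PBS and 3 PP libraries, each gene on its own axis from 0. Points are libraries, bars are means and error bars are SD (n = 3). TXNIP libraries sit at 100.2 to 103.7 FPKM after PBS and at 56.98 to 62.56 FPKM after PP, ARRDC3 shows the opposite order, and the MLXIPL libraries of the groups overlap.

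The level filter was passed by 4 of the 5 genes, and all 4 were called at an adjusted p below 0.05, with 1 higher and 3 lower. These counts were read against the whole table, in which PP moved most genes: 72.5% of the genes tested were called in either direction, 38.1% higher and 34.4% lower, so a call alone sets no gene apart. The libraries of the groups did not overlap for all 4 genes, and for 75% of all genes tested. At a P below 0.001 with a log2 fold change beyond 1 in either direction, none of the 4 genes was called, against 5.18% of all genes. By size of the change, 90.3% of genes tested had a smaller log2 fold change than TXNIP in either direction, 85.1% than ARRDC3, 34.8% than ARRDC4 and 26.7% than MLXIP. The median log2 fold change over all genes was 0.0219, and it was 0.0088 after scaling by size factors.

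To ask whether the genes differed in their response, the difference between the log2 levels of 2 genes was computed in each library and compared between the groups for 6 pairs. With 3 libraries per group, the exact permutation test has 20 assignments and cannot give a p below 0.1. TXNIP moved lower relative to ARRDC3 by a log2 difference of -1.42, relative to MLXIP by -0.64 and relative to ARRDC4 by -0.60. In these 3 pairs, and for ARRDC3 against ARRDC4 (0.82) and against MLXIP (0.77), the libraries of the groups did not overlap, and the two-sided exact permutation p was 0.1, the smallest it can be (adjusted p = 0.12 over the 6 pairs). ARRDC4 and MLXIP, neighbours in the order of their changes, differed by -0.04 (exact permutation p = 0.5, adjusted p = 0.5), with per-library differences of -2.32 to -2.25 after PBS and -2.41 to -2.22 after PP.

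The alpha-arrestin family has 6 members, of which 5 were analysed here and all 5 were called (72.5% of all genes were), ARRDC3 higher and the other 4 lower (34.4% of all genes were lower), with a median log2 fold change of -0.24 against 0.0219 over all genes. ARRDC1, an arrestin of membrane vesicle budding, had 14.92, 16.51 and 16.76 FPKM after PBS and 14.31, 12.45 and 12.22 FPKM after PP (log2 -0.29, limma adjusted p = 0.00269). ARRDC2 moved from 15.01 ± 0.347 to 12.63 ± 1.473 FPKM (SD, n = 3 each; log2 -0.24, limma adjusted p = 0.0121). The summed level of the 5 arrestins was 151.2 to 154.2 FPKM in the PBS libraries and 110.5 to 114.1 FPKM in the PP libraries. TXNIP made up 66.27% to 68.32% of that sum after PBS and 51.54% to 54.85% after PP, while the part of ARRDC3 was 9.23% to 9.915% and then 19.65% to 21.4%. There were 6.684 to 7.28 FPKM of TXNIP per FPKM of ARRDC3 in the PBS libraries and 2.47 to 2.622 in the PP libraries. The sizes of these sums, parts and ratios depend on the gene lengths used for FPKM, which were not checked. The beta-arrestins, which desensitise receptors, were split, with ARRB1 lower (log2 -0.39, limma adjusted p = 4.14e-05) and ARRB2 higher (log2 0.25, limma adjusted p = 0.000377).

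MLX, the partner that MondoA needs to bind DNA, rose while MLXIP fell. MLX had 22.4, 22.69 and 20.92 FPKM after PBS and 25.77, 24.85 and 26.05 FPKM after PP (log2 0.21, limma adjusted p = 0.00164). The FPKM ratio of MLXIP to MLX was 1.056 to 1.155 in the PBS libraries and 0.8216 to 0.9114 in the PP libraries, so it was lower after PP. Which gene of the pair was the more abundant depends on the gene lengths used for FPKM and was not tested. Of the 13 genes of the MLX and MAX network, 11 passed the filter, of which 7 were called higher and 4 lower, where 38.1% and 34.4% of all genes were. The calls of MNT and MXI1, counted as higher, were lost under 7 and 8 of the alternative settings. MAX, the common partner of the MYC proteins, rose (log2 0.52, limma adjusted p = 1.59e-05), as did the repressor partner MXD1 (log2 1.04, limma adjusted p = 2.62e-07), and MXD3 fell (log2 -0.88, limma adjusted p = 4.8e-08). MYC, which shares E-box sites with MondoA, was at 6.389 ± 0.574 FPKM after PBS and 49.18 ± 2.299 FPKM after PP (SD, n = 3 each; limma adjusted p = 1.75e-10), whereas MYCL was at 30.6 ± 0.522 and 7.705 ± 0.266 FPKM (SD, n = 3 each; limma adjusted p = 2.8e-10).

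**Figure D2:**
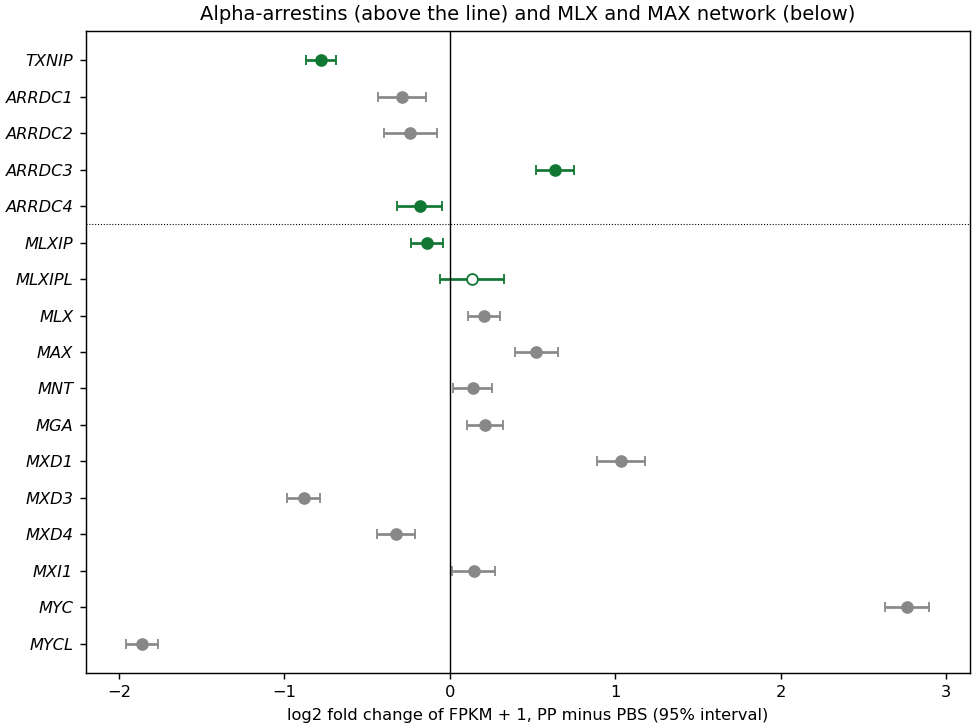
Log2 fold change of PP over PBS on the log2(FPKM + 1) scale with its 95% interval, for the alpha-arrestins (above the dotted line) and the MLX and MAX network (below it). The 5 genes chosen are green, other genes grey, and the open point is MLXIPL, which was not called. ARRDC3 lies at 0.64 on the side opposite to TXNIP at -0.78, and MLX at 0.21 on the side opposite to MLXIP at -0.14.

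Known targets of MondoA and ChREBP did not move as 1 group. Of 21 such genes analysed, 12 passed the filter. Of these, 9 fell and 2 rose, where 34.4% of all genes were called lower and 38.1% higher. KLF10 was not called, at 69.92 ± 2.47 FPKM after PBS and 72.38 ± 3.894 FPKM after PP (SD, n = 3 each; log2 0.05, limma adjusted p = 0.359). The median log2 fold change of the 12 genes was -0.25. LDHA, the lactate-forming enzyme, went from 384.4 ± 13.47 to 255 ± 5.868 FPKM (SD, n = 3 each; limma adjusted p = 1.55e-07), and the lipid synthesis genes FASN (log2 -0.75, limma adjusted p = 7.68e-07) and ACLY (log2 -0.48, limma adjusted p = 2.43e-06) fell too. The genes that rose were HK2, a hexokinase (log2 0.50, limma adjusted p = 4.79e-06), and RGS16, a regulator of G protein signalling. RGS16 had 2.186, 2.408 and 2.618 FPKM after PBS and 16.78, 15.61 and 14.72 FPKM after PP (log2 2.30, limma adjusted p = 1.03e-09). The 9 genes below the filter include the liver genes PKLR, GCKR and SLC2A2, each with at most 9 counts in a library. The call of PFKFB3 was lost under 5 of the alternative settings.

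Genes that make and use glucose 6-phosphate, the metabolite MondoA responds to, moved in both directions. The filter was passed by 11 of 13, with a median log2 fold change of -0.15. Of these, 6 were called lower, 3 higher and 2 were not called, where 34.4% of all genes were called lower and 38.1% higher. HKDC1, a hexokinase-like gene among the 3 higher, passed the filter only through its PP libraries, where it is high, so its place in this count is no support. It had 43, 37 and 24 counts after PBS and 280, 321 and 317 counts after PP. GPI, which converts glucose 6-phosphate to fructose 6-phosphate, was at 96.58 ± 1.014 FPKM after PBS and 59.07 ± 3.299 FPKM after PP (SD, n = 3 each; limma adjusted p = 2.02e-07). G6PC3, the widely expressed glucose 6-phosphatase, was also lower (log2 -0.73, limma adjusted p = 1.71e-07). Among the hexokinases HK1 fell slightly (log2 -0.15, limma adjusted p = 0.00941) and HK2 rose.

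SLC2A1, the GLUT1 transporter whose protein TXNIP and ARRDC4 draw from the surface, rose by 50.83% where TXNIP fell. The PBS libraries had 18.89, 19.36 and 20.35 FPKM and the PP libraries 30.34, 29.74 and 28.31 FPKM (log2 0.57, limma adjusted p = 1.33e-06). SLC2A1 was the 1 glucose transporter called higher of 5 that passed the filter among 14 analysed, where 38.1% of all genes were called higher. SLC2A6 (log2 -0.82, limma adjusted p = 2.4e-06), SLC2A8 (log2 -0.26, limma adjusted p = 0.00533) and SLC2A12 (log2 -0.73, limma adjusted p = 1.23e-05) were called lower. Among all genes 34.4% were called lower. SLC2A12 passed the filter only through its PBS libraries, where it is high, with 475, 399 and 472 counts after PBS and 156, 147 and 214 counts after PP, so its place in this count is no support. SLC2A11 had 4.299 ± 0.609 FPKM after PBS and 4.482 ± 0.378 FPKM after PP (SD, n = 3 each; limma adjusted p = 0.603). The mRNA level says nothing of the amount of transporter at the cell surface, which was not measured.

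Thioredoxin, the protein that TXNIP binds, had a lower mRNA level too. TXN had 139.4, 130.7 and 135.7 FPKM after PBS and 83.46, 84.51 and 82.51 FPKM after PP (log2 -0.69, limma adjusted p = 4.67e-08). The ratio of TXNIP to TXN was 0.7441 to 0.7665 in the PBS libraries and 0.6827 to 0.7582 in the PP libraries, and these ranges overlap. Of the 16 genes of the thioredoxin system 15 passed the filter, with a median log2 fold change of -0.33. Of these, 9 fell and 4 rose, where 34.4% of all genes were called lower and 38.1% higher. The other 2 (TXNRD2 and MAP3K5, the kinase that thioredoxin holds inactive) were not called. The peroxiredoxins PRDX1 (log2 -0.96, limma adjusted p = 2.53e-08) and PRDX2 (log2 -0.72, limma adjusted p = 2.25e-08) fell. TXNRD1, the reductase that recycles thioredoxin, moved the other way, from 71.5 ± 2.883 to 132.1 ± 6.317 FPKM (SD, n = 3 each; limma adjusted p = 4.86e-08), and SRXN1, which restores oxidised peroxiredoxins, rose (log2 0.75, limma adjusted p = 9.12e-07). The call of PRDX5 was lost under 8 of the alternative settings.

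Of the NEDD4 family ligases that alpha-arrestins recruit, 7 of 9 passed the filter. Of these, 3 rose, 3 fell and SMURF2 was not called, where 38.1% of all genes were called higher and 34.4% lower. NEDD4 itself had 9.604, 9.657 and 9.442 FPKM after PBS and 61.93, 60.19 and 66.03 FPKM after PP (log2 2.59, limma adjusted p = 5.6e-11), every PP library far above the PBS range. ITCH, a ligase for TXNIP protein, went from 13.47 ± 0.499 to 20.07 ± 0.71 FPKM (SD, n = 3 each; limma adjusted p = 2.5e-06), and NEDD4L fell (log2 -0.53, limma adjusted p = 7.56e-06). Without PBS replicate 2 the count of lower ligases was 1 and that of higher ligases was 2. The call of SMURF1, counted as higher, was lost under 4 of the alternative settings. Among membrane proteins described as arrestin cargo 3 of 5 passed the filter. Of these, SLC2A1 rose and INSR, the insulin receptor, fell (log2 -0.49, limma adjusted p = 0.000206), where 38.1% of all genes were called higher and 34.4% lower. ITGB4 was not called at 4.196 ± 0.327 and 3.945 ± 0.121 FPKM (SD, n = 3 each).

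Genes described as regulators of TXNIP, a list that mixes activators and repressors, were called higher in 10 of 12 cases, with NFYA lower and NFYB not called, where 38.1% of all genes were called higher. Their median log2 fold change was 0.42. ERN1, which encodes the unfolded protein sensor IRE1, had 5.12, 5.086 and 5.233 FPKM after PBS and 28.81, 27.67 and 26.92 FPKM after PP (log2 2.23, limma adjusted p = 1.27e-10). EIF2AK3, which encodes the sensor PERK, also rose (log2 1.01, limma adjusted p = 1.24e-08), and both sensors are known to raise TXNIP mRNA during endoplasmic reticulum stress. PRKAA1 (log2 0.19, limma adjusted p = 0.00991) and PRKAA2 (log2 0.35, limma adjusted p = 0.00173), the catalytic subunits of AMPK, a kinase known to lower TXNIP, rose as well. The glucocorticoid receptor NR3C1 (log2 0.62, limma adjusted p = 2.88e-06) and HSF1, the heat shock factor (log2 0.50, limma adjusted p = 1.2e-06), were higher. The NF-Y subunits, which bind the CCAAT box shown above, differed among themselves, with NFYA at log2 -0.38 (limma adjusted p = 2.68e-05), NFYC at 0.41 (limma adjusted p = 8.92e-06) and NFYB at 0.10 (limma adjusted p = 0.0654). FOXO1 averaged 0.89 FPKM after PBS and 1.21 FPKM after PP, so it passed the filter only through its PP libraries and its place in the count of 10 is no support. Its call was lost under 4 of the alternative settings, and the lists of regulators, targets and ligases were chosen with results of these data known.

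**Figure D3:**
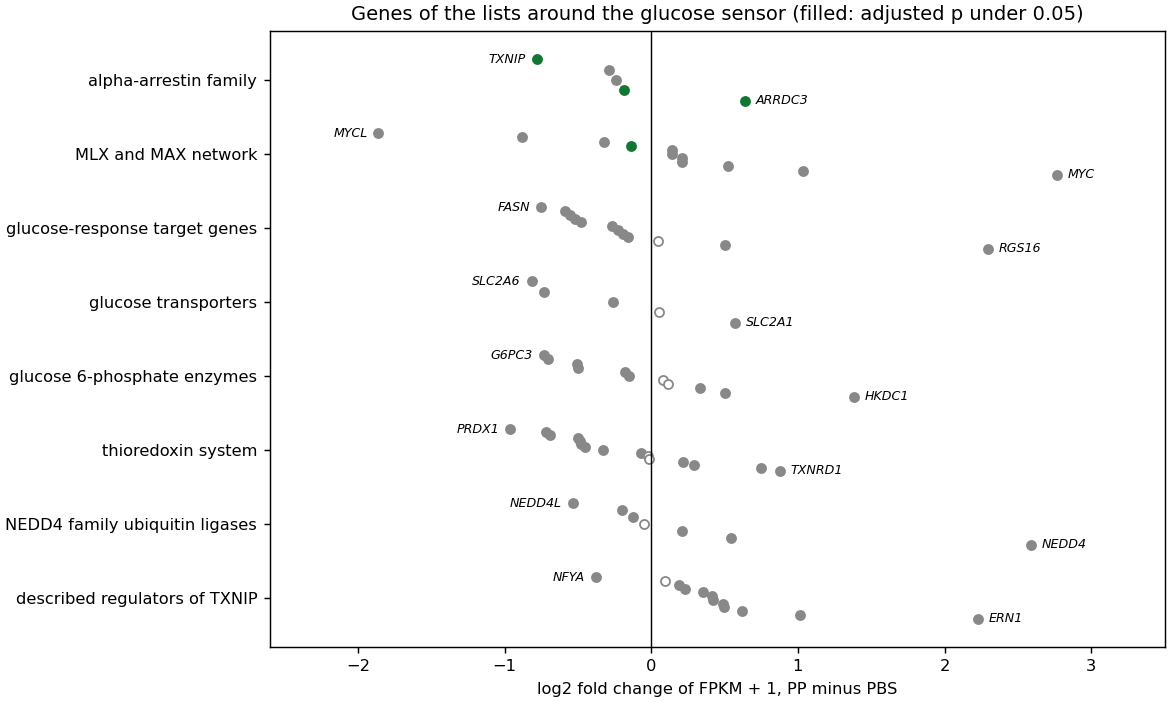
Log2 fold change of PP over PBS for each gene that passed the filter in 8 lists around TXNIP and MondoA, filled where the adjusted p was below 0.05, with the chosen genes in green and the lowest and highest gene of each list named. Most points of the thioredoxin system lie left of 0 (median -0.33) and most described regulators of TXNIP lie right of it (median 0.42).

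The genes nearest in profile to TXNIP were those with the smallest root mean square distance between their log2 values over the 6 libraries, each gene set to a PBS mean of 0. Those reported here were MECOM (distance 0.0306), NDUFB3 (0.0327), RAP1GAP2 (0.0346) and RTBDN (0.0364). MECOM averaged 2.248 FPKM after PBS and 0.8965 FPKM after PP, so it passed the filter only through its PBS libraries. Its place in this list is no support, because the log2(FPKM + 1) scale understates changes of such low genes. NDUFB3, a subunit of respiratory complex I, had mean levels of 24.9 FPKM after PBS and 14.25 FPKM after PP. For ARRDC4 the nearest were PIGX (0.0208), PLEKHA7 (0.0221), ALG10 (0.0241), MYO5A (0.0265) and SAMD4B (0.0267). These lists describe likeness over 6 libraries, which with a PBS mean of 0 follows mainly from the log2 fold changes.

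**Figure D4:**
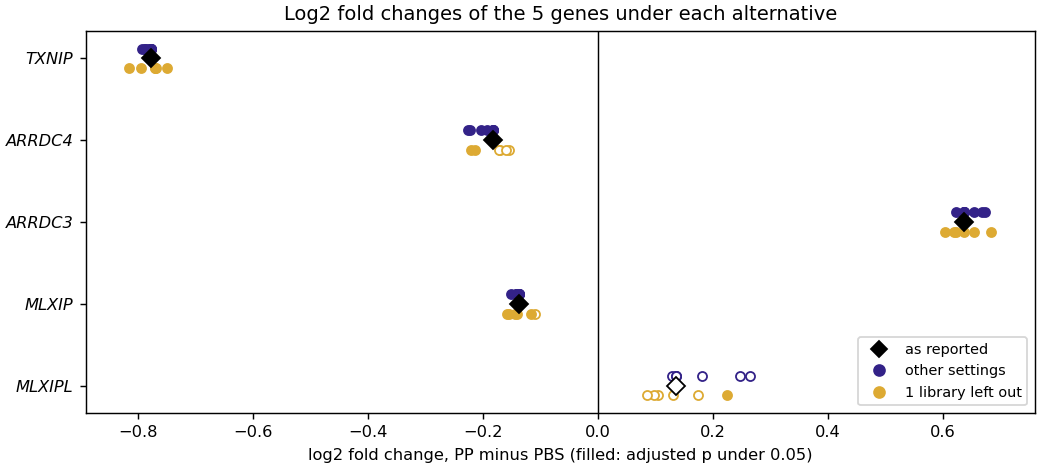
Log2 fold change of the 5 genes as reported (diamonds), under other settings (blue) and with 1 library left out (yellow), filled where the adjusted p was below 0.05. TXNIP and ARRDC3 keep their direction and call in all 15 alternatives, while ARRDC4, MLXIP and MLXIPL lie near 0 and cross the threshold when some libraries are left out.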

How the data were processed

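RNA-seq was analysed in 6 libraries, 3 PBS and 3 PP. The authors deposited FPKM values per gene symbol. The methods name Bowtie and hg19 with RSEM, Cufflinks and HTSeq, whereas the submitters' processing notes list fastp, HISAT2, HTSeq and GRCh38, and which of them gave the deposited values is not settled. The legend and the labels give 3 samples per group, whereas the methods name 2 and a different sequencer from the labels. All 6 labelled libraries were used.

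Each of the 17177 genes could be written as whole counts (tolerance 0.01 of a count), giving 29064253 to 32481171 counts per library, so that low genes are measured less precisely. Log2(FPKM + 1) of the 11726 genes averaging 1 FPKM or more over the libraries was fitted with limma 3.58.1 in R 4.3.3 (eBayes with intensity trend, Benjamini-Hochberg adjustment), and limma-voom on the recovered counts was an alternative that called 4524 genes higher and 4083 lower. Pairs of genes were compared by a two-sided exact permutation test. Of these steps only the limma fit was tested on simulated data, in which 199 of 11712 genes were changed, far fewer than were called here. All 199 were called in the right direction, as were 16 of the 11513 unchanged genes in either direction.

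The genes, lists and tests were chosen with earlier results of these data known. Named genes were the 5 members, genes of the lists and the 5 nearest profiles. Alternatives varied the pseudocount (0.1 and 0.5), the filter (0.1, 5 or none), the scaling, the trend, the replicate block and the libraries. ARRDC5, G6PC, G6PC2, SLC2A14, KLK2 and KLK3 were not analysed here. The results for some other genes are not reported here. Promoters and figures used Python 3.11.15.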

Additional observations from a re-analysis of the deposited data

How the results depend on the processing

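TXNIP (-0.82 to -0.75) and ARRDC3 (0.60 to 0.68) kept their direction and call under all 15 alternatives, with limma adjusted p of at most 1.62e-05 and 8.22e-05. Leaving out 1 library gave log2 fold changes of -0.22 to -0.16 for ARRDC4, -0.16 to -0.11 for MLXIP and 0.0851 to 0.22 for MLXIPL. ARRDC4 was then past the threshold in 2 of 6 such fits, MLXIP in 5 of 6, and MLXIPL in 1 of 6, and the cause was not tested. Over all alternatives the adjusted p ran from 0.0127 to 0.0817 for ARRDC4, from 0.00187 to 0.0706 for MLXIP and from 0.0265 to 0.458 for MLXIPL. A minimum of 5 FPKM gave no value for ARRDC4 and MLXIPL, and by removing INSR it left 0 lower genes of arrestin cargo. Over all genes, 3529 to 4736 were higher and 3031 to 4458 lower. The direction of SLC2A11, TXNRD2 and MAP3K5, none of them called, turned under some alternatives. With the replicate number as a block, the log2 fold changes of TXNIP (-0.78, limma adjusted p = 2.02e-06), ARRDC3 (0.64, 1.98e-05), ARRDC4 (-0.18, 0.0372), MLXIP (-0.14, 0.0304) and MLXIPL (0.14, 0.174) kept their calls, and 4260 genes were higher and 3878 lower. Same-numbered libraries did not deviate together (correlations of -0.211, -0.014 and -0.127), so the numbers were not taken as pairs. Depth limits MLXIPL most, at about 98 to 146 counts per library.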

Other observations

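Genes with the same promoter letters as TXNIP were counted after the results had been seen, as a description with no test. Of the genes with the carbohydrate response element form in the 250 bases before a listed start, 93 were tested, of which 34.4% were higher and 35.5% lower with PP, and their median log2 fold change was -0.02. Of the genes with CACGTG there, as in ARRDC4, 1089 were tested, with 39.9% higher, 33.1% lower and a median of 0.03. Of the genes with at least 2 CCAAT boxes, as in TXNIP and ARRDC4, 1489 were tested, with 34.5% higher, 36.4% lower and a median of -0.01. Over all 9557 genes tested that have a listed promoter, 38.7% were higher and 33.8% lower, with a median of 0.03. FGF21, a hormone and glucose-response target of low level, had 2, 6 and 7 counts in the PBS libraries and 20, 26 and 33 counts in the PP libraries. MYCN, also below the filter, was at 76, 41 and 65 counts after PBS and 40, 28 and 15 counts after PP.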
